A study of Mus musculus with 2 samples.

Results

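The account follows 5 microRNA genes, Mir214, Mir199a-2, Mir199a-1, Mir199b and Mir140, in hindbrain of mouse embryos at embryonic day 13.5. They were chosen by name as microRNAs of mesenchyme and cartilage, and all 5 had a row among the 1973 gene rows of the deposited tables. The embryos were healthy, of strain B6NCrl, with both sexes pooled. Short RNA was sequenced from 2 libraries, replicate 2 and replicate 1, which form 1 group with no treatment, mutation or second tissue. The labels number them as biological replicates, with 1 donor identifier for both and a biosample identifier for each, and do not say whether they came from separate litters. Their spread can therefore be technical in part, and p-values measure only differences between these libraries.

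A microRNA is cut from a hairpin precursor, from which a 5p arm, a 3p arm or both are kept as the mature RNA, and bases 2 to 8 of a mature RNA, its seed, choose its targets. Mir199a-2 and Mir214 are made from the long non-coding transcript Dnm3os, which in mouse embryos is active in mesenchyme and perichondrium and is regulated by the mesenchymal factor Twist1. Mir140 lies inside Wwp2, is regulated by the chondrocyte factor Sox9 and is best known from developing cartilage of the face, skull base and limbs. Around the hindbrain such tissue forms the meninges and the skull base, while the labels name hindbrain only. In whole tissue, fewer cells of a type and less RNA per cell cannot be told apart.

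The mature sequences below are shown because 3 of the 5 genes make the same RNA, which decides what a count per gene can hold. RefSeq on GRCm38.p6 listed 8 mature entries for these genes, with 5 distinct sequences, and capitals mark the seed. No sequence is printed for miR-199b-5p and miR-140-5p.
miR-199a-5p, from Mir199a-2 and Mir199a-1: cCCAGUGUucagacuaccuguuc
miR-199a-3p and miR-199b-3p, from Mir199a-2, Mir199a-1 and Mir199b: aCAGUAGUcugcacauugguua
miR-214-5p: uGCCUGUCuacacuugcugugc
miR-214-3p: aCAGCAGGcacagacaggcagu
miR-140-3p: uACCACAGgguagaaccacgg

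These arms carry 5 different seeds, so the listed arms of miR-214 and miR-140 share no seed with those of the mir-199 family. Outside the 5 genes, the seed of miR-214-3p recurred in miR-761, whose gene Mir761 had 0 counts in replicate 2 and 0 in replicate 1. The seed of miR-140-3p recurred in miR-497b, whose gene Mir497b had 3 and 0 counts. Among the genes listed with these seeds, then, nearly all counts stood on Mir214 and Mir140. A count per gene does not tell its arms apart, so how many reads carried either seed was not tested. The seed of miR-140-5p, which had no printed sequence, was not compared.

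The mir-199 genes are near copies of each other. In all, 1894 hairpins with a row in the tables were compared. The 5p arm miR-199a-5p was found whole in 2 of them, and the 3p arm in 3. A read of exactly either arm thus has no single mir-199 gene among these hairpins. The authors' tables list multimapping reads apart from the gene rows, 34.5% of reads in replicate 2 and 33.9% in replicate 1, and the rule that made a read multimapping is not given in the sources used here. Which of the multimapping reads came from the mir-199 genes was not tested. One base more at the 5′ end made miR-199a-5p particular to its own hairpin, and 2 more bases at the 3′ end did so for miR-199a-3p in Mir199a-2 but not in Mir199a-1 or Mir199b, which then still matched each other.

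Mir199b differs from both Mir199a copies inside the 5p arm. The stretch of the Mir199b hairpin that lines up with miR-199a-5p, bases 26 to 48 of the hairpin, has 1 substitution, C10U, with positions counted from 1 at the 5′ end of miR-199a-5p and the base of miR-199a-5p given first. The pair is printed with that base in capitals, since it is what lets a 5p read be placed on Mir199b alone; the Mir199b stretch occurs in 1 of the 1894 hairpins.
Mir199a-2 and Mir199a-1: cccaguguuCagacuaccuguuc
Mir199b: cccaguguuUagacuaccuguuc

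Cut into all stretches of 20 nt, the Mir199a-1 hairpin shared 17 of its 51 stretches with another hairpin, Mir199a-2 shared 16 of 91 and Mir199b 10 of 91. Mir214 shared 0 of 91 and Mir140 0 of 51. The counts of Mir214 and Mir140 therefore do not depend on this sharing among hairpins, whereas those of the mir-199 genes are uncertain and may miss reads. Sequences were compared among hairpins only. Matches elsewhere in the genome were not tested for any of these genes.

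**Figure D1:**
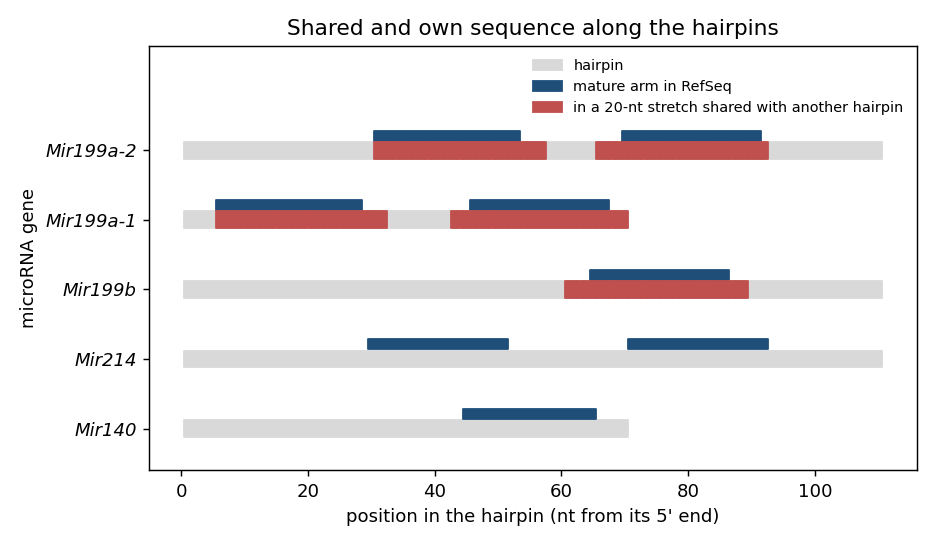
Each row is 1 hairpin drawn to scale by position from its 5′ end, in nt. Red marks bases in a 20-nt stretch shared with another hairpin and blue bars mark the mature arms in RefSeq; both arms lie in red in the Mir199a copies, only the 3p side is red in Mir199b, and Mir214 and Mir140 have no red.

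On GRCm38, the assembly that mm10 denotes, Mir214 (ENSMUSG00000065516.1) lay at chr1:162223368-162223477 and Mir199a-2 (ENSMUSG00000070126.1) at chr1:162217814-162217923, both on the plus strand with 5444 nt between them. Both hairpins fall in exons of Dnm3os and, on the opposite strand, in introns of Dnm3, a dynamin gene. Mir199b (ENSMUSG00000092807.1) lay at chr2:32318460-32318569 on the plus strand, opposite introns of the dynamin gene Dnm1. Mir199a-1 (ENSMUSG00000065547.1) lay at chr9:21496495-21496564 on the minus strand, opposite introns of Dnm2, the remaining dynamin gene. Mir140 (ENSMUSG00000065439.1) lay at chr8:107551244-107551313 on the plus strand inside Wwp2, a ubiquitin ligase gene, intronic in 3 of its 4 transcripts that span the site and exonic in 1.

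Levels are CPM, the annotated-strand counts of a gene per 1000000 such counts over all gene rows of that library. The rows summed to 4508244 counts in replicate 2 and 3006571 in replicate 1. Genes reaching 10 counts in each library were called detected, 356 in all. Of the 5 genes 4 were detected and Mir199a-1 was not. Together the 5 genes summed to 3844 CPM in replicate 2, against 4539 CPM in replicate 1, a mean of 4192 ± 492 CPM (SD, n = 2). Mir140 alone made up 86.0% of that sum in replicate 2 and 81.9% in replicate 1, more than the other genes together. The mir-199 counts may miss multimapping reads, so these shares hold for counted reads only. Mir214 and the 3 mir-199 genes together summed to 538 CPM in replicate 2, against 821 CPM in replicate 1.

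Mir140, which mice need for normal growth of the skull and limbs, had 14903 counts or 3306 CPM in replicate 2, against 11181 counts or 3719 CPM in replicate 1. The exact Poisson 95% intervals, which cover counting error only, were 3253 to 3359 CPM and 3650 to 3788 CPM and did not overlap. Its mean was 3512 ± 292 CPM (SD, n = 2), or 0.351% of the counts, and placed it at rank 51 of the 356 detected genes. Its neighbours in that order were Mir296 and Mir125a above and Mir23a and Mir872 below, at 3685 to 3406 CPM, and the ranges of all 4 over the libraries overlapped that of Mir140.

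Mir214, a mesenchymal microRNA that in mouse bone restrains osteoblasts, had 1672 counts or 371 CPM in replicate 2 and 1840 counts or 612 CPM in replicate 1. Replicate 2, the deeper library, thus held fewer Mir214 counts than replicate 1, and the intervals of 353 to 389 CPM and 584 to 641 CPM lay apart. The mean was 491 ± 170 CPM (SD, n = 2), rank 124, between Mir186 at 496 ± 4.19 CPM and Mir363 at 473 ± 37.5 CPM. The range of Mir214 over the libraries overlapped those of Mir186, Mir363 and the next 2 genes, Mir320 and Mir138-2.

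Mir199b had 686 counts or 152 CPM in replicate 2 and 584 counts or 194 CPM in replicate 1, with intervals of 141 to 164 CPM and 179 to 211 CPM. Its mean of 173 ± 29.8 CPM (SD, n = 2) stood at rank 176, where Mir148b and Mir148a above it and Mirlet7a-2 and Mir218-2 below it had overlapping ranges. Among the mir-199 genes it held most of the counts, and it is also the copy whose 5p side is its own.

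Mir199a-2, transcribed with Mir214 from Dnm3os, had 60 counts or 13.3 CPM in replicate 2, against 38 counts or 12.6 CPM in replicate 1. The intervals were 10.2 to 17.1 CPM and 8.94 to 17.3 CPM and overlapped almost wholly. Its mean of 13.0 ± 0.474 CPM (SD, n = 2) was rank 302. Mir199a-1 had 7 counts or 1.55 CPM in replicate 2 and 5 counts or 1.66 CPM in replicate 1, with intervals of 0.624 to 3.20 CPM and 0.540 to 3.88 CPM. A count of 0 would allow up to 0.665 CPM in replicate 2 or 0.998 CPM in replicate 1, so these few counts stood near the limit of the depth.

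**Figure D2:**
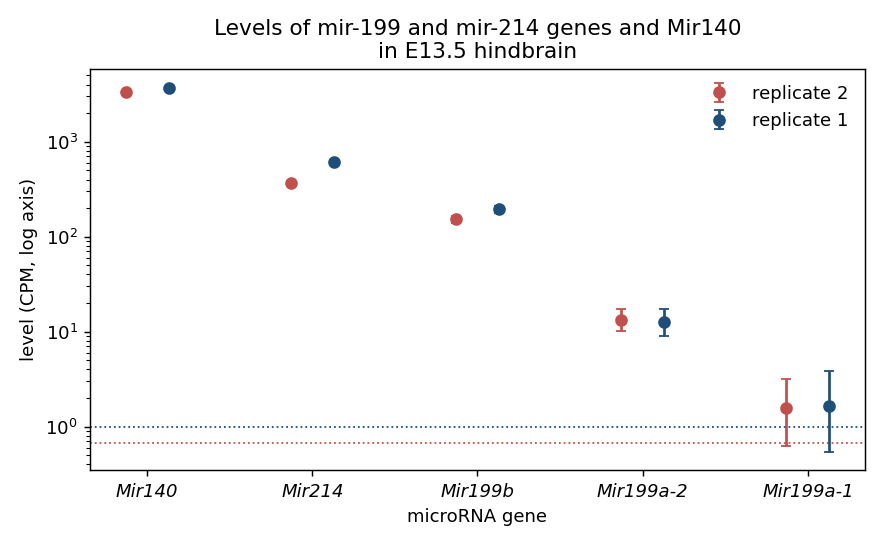
Levels in CPM on a log axis for each gene in replicate 2 and replicate 1, with exact Poisson 95% intervals as bars and the level that a count of 0 allows in each library as dotted lines. The genes run from Mir140 at 3306 and 3719 CPM down to Mir199a-1 at 1.55 and 1.66 CPM, and neighbouring genes do not overlap in either library.

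The order was Mir140, Mir214, Mir199b, Mir199a-2 and Mir199a-1 in both libraries, and each neighbouring pair lay apart in its intervals in both libraries and in its range over them. This order holds for counted reads only, since the mir-199 counts may miss multimapping reads. Per 100 nt of hairpin the order was the same, with levels of 5018 ± 417 CPM for Mir140 and 447 ± 155 CPM for Mir214 (SD, n = 2 each). In CPM, Mir140 was 8.91 times Mir214 in replicate 2 and 6.08 times in replicate 1. Per 100 nt the ratios were 14.0 and 9.55, larger only because the Mir140 hairpin is shorter, at 70 nt. Whether counts scale with hairpin length was not tested. Mir214, Mir199b and Mir199a-2 have hairpins of 110 nt each, so their ratios are equal on both scales.

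Mir214 and Mir199a-2 share the host gene Dnm3os but differed widely in counts. Of its annotated transcripts, 5 have an exon at Mir199a-2 and 3 have an exon at Mir214. Mir214 had 27.9 times the counts of Mir199a-2 in replicate 2, with an exact binomial 95% interval of 21.5 to 36.7, and 48.4 times in replicate 1, with an interval of 35.1 to 68.6. The intervals of the libraries overlapped narrowly, from 35.1 to 36.7. From replicate 1 to replicate 2 the log2 of this ratio changed by -0.80. Overlap of intervals is no test, and whether the ratio differed beyond counting error was not tested. Mir199b had 11.4 times the counts of Mir199a-2 in replicate 2 and 15.4 times in replicate 1. Since both arms of Mir199a-2 occur in another hairpin and no arm of Mir214 does, whether these ratios follow the amounts of RNA made was not tested.

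**Figure D3:**
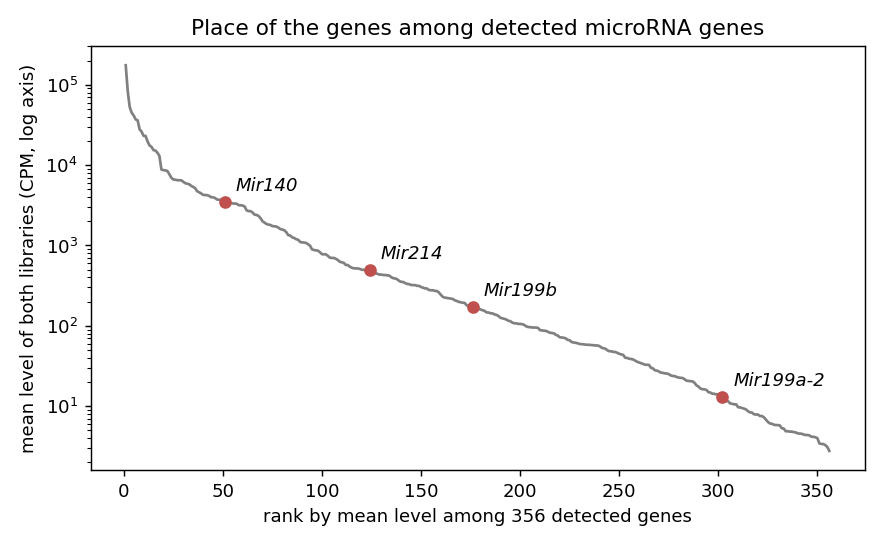
Mean level of both libraries, in CPM on a log axis, against rank for the 356 detected genes, drawn as a line. Points mark Mir140 at rank 51, Mir214 at rank 124, Mir199b at rank 176 and Mir199a-2 at rank 302; Mir199a-1 was under the detection limit and is not drawn.

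Opposite Mir214 and the mir-199 genes, Dnm3, Dnm1 and Dnm2 are annotated, while Wwp2 lies on the same strand as Mir140. No count of any of the 5 genes lay on the opposite strand: the column taken as the opposite strand held 0 in both libraries. For Mir140 this allows up to 0.0201% of its counts in replicate 2 and 0.0268% in replicate 1, for Mir214 up to 0.179% and 0.163%, and for Mir199b up to 0.437% and 0.514%. At the depth of Mir199a-2 the limits were 5.0% and 7.89%, and for Mir199a-1 they were too wide to be informative. The gene rows as a whole held 1.90% of their counts on that strand in replicate 2 and 1.88% in replicate 1.

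The libraries were compared gene by gene with a two-sided exact binomial test on the counts, given library sizes scaled by the trimmed mean of M-values (TMM), with p-values adjusted by Benjamini-Hochberg across all 356 detected genes and a threshold of 0.05. The test takes counting error as the only error. Mir214 was lower in replicate 2, with a log2 ratio of replicate 2 over replicate 1 of -0.74 (95% interval -0.83 to -0.64, adjusted p = 4.41e-50, exact binomial test). Mir199b was lower at -0.37 (-0.53 to -0.20, adjusted p = 3.04e-05, exact binomial test) and Mir140 at -0.18 (-0.22 to -0.15, adjusted p = 5.29e-23, exact binomial test). Mir199a-2 had a log2 ratio of 0.06 with an interval of -0.55 to 0.69, wide enough to hold no difference or one as large as that of Mir199b (adjusted p = 0.953, exact binomial test). The interval of Mir199a-2 did not reach the -0.74 of Mir214, with which it shares Dnm3os. Whether the log2 ratios of these genes differed was not tested. Mir199a-1, below the detection limit, was not in the test.

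So 3 of the 4 detected genes passed the test, all lower in replicate 2. Of all detected genes 45.2% passed, 22.8% lower in replicate 2, which shows how much the libraries differ beyond counting error throughout. The median log2 ratio was -0.27 over the 4 genes and 0.01 over all detected genes, whose SD was 0.39. Mir214 had the 26th largest absolute log2 ratio of the 356, Mir199b the 65th and Mir140 the 165th, near the middle.

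Tests that add a spread between replicates ranked the genes differently. In edgeR's exact test with a preset biological coefficient of variation (BCV) of 0.1, which passed 3.65% of detected genes, Mir214 passed (adjusted p = 0.0146) while Mir199b (adjusted p = 0.832) and Mir140 (adjusted p = 0.992) did not. With the common BCV of 0.141 estimated from these libraries, edgeR's exact test passed 1.4% of detected genes and none of the 4, with an adjusted p of 0.308 for Mir214. The estimated BCV came from the same libraries taken as 1 group, so it already held the differences under test. Each test sets 1 library against 1, so a gene's place in them is a ranking and no evidence of a difference between hindbrains.

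**Figure D4:**
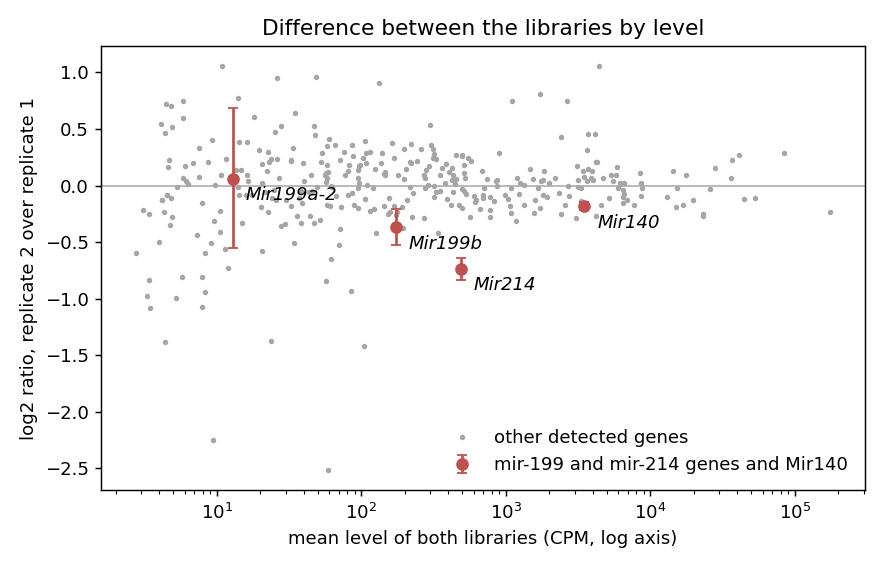
Log2 ratio of replicate 2 over replicate 1 against mean level, in CPM on a log axis, for all 356 detected genes, with exact binomial 95% intervals on Mir214, Mir199b, Mir199a-2 and Mir140. Mir214 lies at -0.74, Mir199b at -0.37, Mir140 at -0.18 and Mir199a-2 at 0.06 with a wide interval.

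Over only 2 libraries the pattern of a gene is its log2 ratio alone. Among the 272 detected genes that averaged 100 counts or more, those nearest to Mir214 in log2 ratio were Mir679 at -0.65, Mir200c at -0.84 and Mir429 at -0.93, the last 2 of them epithelial mir-200 genes. Nearest to Mir199b were Mir7689 at -0.36, Mir301b at -0.38 and Mir666 at -0.39. Mir140 had Mir346, Mir425 and Mir218-2 within 0.01 of its own -0.18, and Mir199a-2 had Mir350, Mirlet7f-2 and Mir361 at 0.06. Such likeness over 2 points is a description only.

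Other microRNAs tied to connective tissue differed little between the libraries in their sum. The list held Mir143 and Mir145a of mural cells, Mir455 and Mir675 of cartilage, and Mir21a, Mir152, Mir31 and Mir483, which are found in fibroblasts or embryonic mesoderm among other cells. All 8 were detected, and they summed to 10909 CPM in replicate 2, against 11102 CPM in replicate 1, a log2 ratio of -0.04. Mir143, at a mean of 6490 CPM, and Mir21a, at 3997 CPM, held most of that sum. It therefore says little of the other genes in the list. By the exact binomial test 1 was higher and 2 lower in replicate 2, with a median log2 ratio of -0.06, against the 45.2% of all detected genes that passed. Mir143 was lower at -0.10 (adjusted p = 1.81e-13) and Mir21a higher at 0.05 (adjusted p = 0.00583), both small next to Mir214. Mir675, made from H19, had 41 counts in replicate 2 and 45 in replicate 1 and a log2 ratio of -0.73 (adjusted p = 0.0454), close to that of Mir214 but on few counts. None of these 3 genes passed edgeR's exact test, with adjusted p-values of 1 for Mir143, 1 for Mir21a and 0.806 for Mir675 at the preset BCV and 1 for each at the estimated BCV. Mir455, a cartilage gene like Mir140, had 215 CPM in replicate 2, against 193 CPM in replicate 1, and a log2 ratio of 0.15, not past the test (adjusted p = 0.106).

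**Figure D5:**
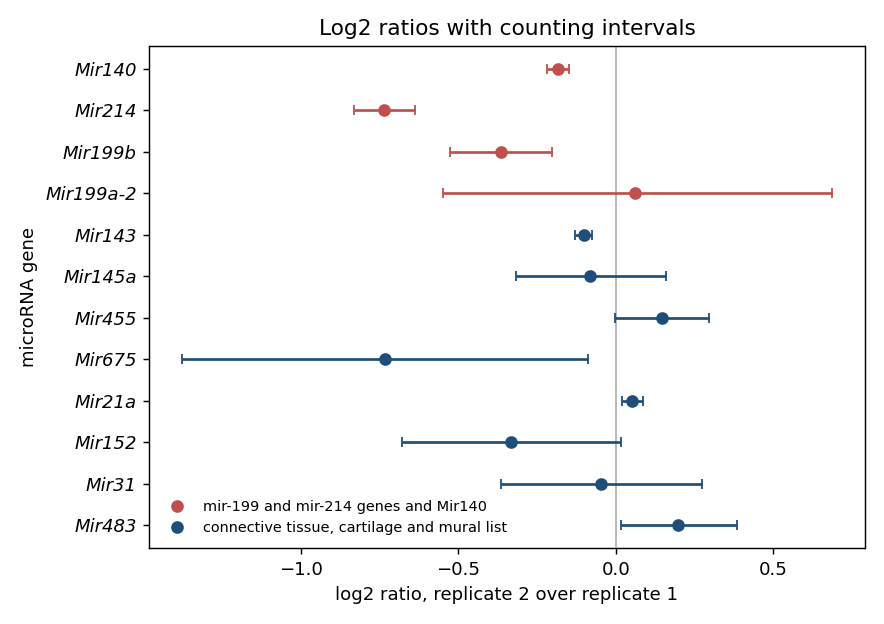
Log2 ratios of replicate 2 over replicate 1 with exact binomial 95% intervals for Mir214, Mir199b, Mir199a-2 and Mir140 in red and the 8 connective tissue, cartilage and mural genes in blue. Mir214 at -0.74 and Mir675 at -0.73 are lowest, with a far wider interval for Mir675, and the other blue genes lie between -0.33 and 0.20.

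Some markers of other cell types differed more between the libraries than Mir214, which ranked 26 by absolute log2 ratio. Mir208b, Mir208a, Mir451a and Mir206 ranked 1, 2, 3 and 12 of the 356 detected genes. Mir196b, a marker of caudal trunk position, ranked 13, with a log2 ratio of 0.95. Mir126a, Mir144, Mir223 and Mir155 differed less than Mir214. The muscle list, with 3 detected genes of 8 that had a row and 3 at 0 in both libraries, summed to 90.1 CPM in replicate 2 and 152 CPM in replicate 1, with Mir208b at -2.51, Mir208a at -2.25 and Mir206 at 0.96. Mir1a-1, Mir133a-1 and Mir133a-2, the defining genes of striated muscle, were those at 0; their mature RNAs come from several copies each, as for mir-199, so a 0 here does not show that the RNA was absent. In the blood and endothelium list, with all 5 genes that had a row detected, the erythroid Mir451a stood at -1.42 and the endothelial Mir126a at -0.13. Mir144, the erythroid partner of Mir451a, stood at 0.03, the myeloid Mir223 at 0.10 and Mir155 of immune cells at 0.37. The median log2 ratio of the list was 0.03, and it summed to 19333 CPM in replicate 2, against 20996 CPM in replicate 1. Mir126a alone held 18917 and 20540 CPM of these sums, which therefore say little of the blood genes. The neural list, with 9 of 13 genes detected, summed to 11070 and 11087 CPM, and only the multi-copy Mir124a genes and Mir9-2 were under the detection limit. Mir137 held most of the neural sums, at 6281 CPM in replicate 2 and 6132 CPM in replicate 1. Mir10a and Mir10b, which mark the hindbrain and trunk by Hox position, summed to 132876 CPM in replicate 2 and 109408 CPM in replicate 1, against 36.2 and 18.3 CPM for the mir-196 genes of the caudal trunk. The part of these tissues in the lower Mir214 of replicate 2 was not tested.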

How the data were processed

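The authors deposited a table of raw counts of reads on each microRNA gene for each library, aligned to mm10 and counted on GENCODE M4 per the deposited README text. Aligner, counter and their settings were not given in the sources used here. Of the 3 count columns, the annotated-strand one was used; it held 98.1% of gene counts in each library, and in every row the strands added up to the either-strand value. Summary rows stayed out of library sizes. Gene rows held 47.5% of 9486700 reads in replicate 2 and 49.0% of 6141045 in replicate 1. Names, loci and hosts came from GENCODE M21, which matched 1894 rows; the other 79 had at most 1 count in a library. Hairpins and mature sequences came from RefSeq on GRCm38.p6, matched by symbol for 5 of 5 genes.

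Intervals are exact Poisson or binomial (95%, scipy 1.17.1) and cover counting error only, since no molecular identifiers are named. TMM sizes and exact tests used edgeR 4.0.16 over the detected genes; with 1 group its quasi-likelihood test could not be run. DESeq2 1.42.0 gave alternative size factors. As a check for a duplicated library, the libraries' counts were compared and differed beyond sampling noise (chi-square 38605.6, 355 degrees of freedom), so they were counted as 2; this does not show how separate their sources were. Named genes were the 5 genes, the 2 detected genes above and below each in level, the 3 nearest in log2 ratio, genes sharing a seed and the marker lists. The genes and lists were chosen with earlier results of these data known.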

Additional observations from a re-analysis of the deposited data

How the results depend on the processing

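Against all reads, summary rows included, in place of gene counts, levels were 1696 CPM for Mir140, 238 for Mir214, 83.7 for Mir199b, 6.26 for Mir199a-2, 0.776 for Mir199a-1 and 2024 for their sum, because gene rows hold less than all reads. Leaving out 1 library gave 3306 to 3719 CPM for Mir140, 371 to 612 for Mir214, 152 to 194 for Mir199b, 12.6 to 13.3 for Mir199a-2, 1.55 to 1.66 for Mir199a-1 and 3844 to 4539 for the sum. No log2 ratio changed sign under the alternatives run. At a preset BCV, by the exact test of edgeR, Mir199b (-0.37) and Mir140 (-0.18) no longer passed, and 13 detected genes passed in place of 161; with the estimated BCV, Mir214 (-0.74), Mir199b (-0.37) and Mir140 (-0.18) did not pass, and 5 genes did. These tests add a spread between replicates to counting error, and the estimated BCV takes that spread from the same libraries that it compares. Totals, DESeq2 size factors, the either-strand column and a filter of 1 count kept every call on the 4 genes, with -0.76 to -0.72 for Mir214. Counting minimums of 1 or 5 detected 5 of the genes and a minimum of 20 detected 4. No paired analysis was possible because the libraries form 1 group. Depth limits Mir199a-1 and Mir199a-2, and multimapping reads may limit all mir-199 genes. For Mir214 and Mir140, loss of reads to matches outside the compared hairpins was not tested.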
